A study of Mus musculus with 4 samples.

Results

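The Cd28 locus transcripts are 5 genes that lie next to each other on mouse chromosome 1: Cd28 itself, Gm38388, Gm11577, 2310016D23Rik and Gm37198. They were chosen by symbol, out of 56980 genes counted, as neighbours at positions 60633966 to 60842950 of the GRCm39 build, with their higher level in the triple knockout already known. For that reason their TKO against Ctrl values are given below as a description, without a test. A total of 11 counted genes touch that stretch, so the list is not everything annotated there, and 6 of them were left off it. Of these 6, Gm57165, Gm57147 and Eif4a-ps4 are described with the neighbours. The others were too low to test: Gm11579 gave 0, 0, 6 and 7 UMIs and Gm55967 0, 0, 3 and 3 UMIs in Ctrl1, Ctrl2, TKO1 and TKO2 keratinocytes, and Gm11609 none in any.

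The measurements are UMI counts (counts of single captured RNA molecules) from droplet single-cell RNA-seq, read at the 3′ ends of transcripts. The 4 libraries hold cells sorted as Epcam+ α6+ from mouse dorsal skin, labelled E16.5, and each comes from 1 embryo. All embryos, Ctrl included, carried Suv39h1 f/f, Suv39h2-/- and Setdb1 f/f alleles and were exposed to Tamoxifen. The 2 TKO embryos also carried K14CreERT2, a recombinase switched on by tamoxifen in keratin 14-expressing epithelium, and the 2 Ctrl embryos did not, so Suv39h2 was deleted in both groups. The products of the 3 targeted genes methylate histone H3 at lysine 9, a modification found on silenced chromatin. The study describes the TKO embryos of this experiment as mosaic and attributes mosaic loss to incomplete action of the recombinase. TKO keratinocytes can therefore include cells that kept the modification.

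Cd28 encodes a co-stimulatory receptor of T cells. It binds Cd80 and Cd86 on antigen-presenting cells and, through kinases and adaptors such as Fyn and the PI3-kinase subunit Pik3r1, adds to the signal of the T cell receptor. Ctla4 and Icos, its relatives in the same gene cluster, act as an inhibitory receptor for the same ligands and as a receptor for Icosl. Keratinocytes are not a usual site of its expression. The other 4 members have no established role: 2310016D23Rik is annotated as a long non-coding RNA, Gm11577 as a transcribed processed pseudogene, and Gm38388 and Gm37198 as transcripts awaiting experimental support.

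After filters on genes, mitochondrial share and doublets, 10764 cells were kept from 19789 barcodes, of which 9185 were keratinocytes (2842 and 2988 in Ctrl1 and Ctrl2, 1564 and 1791 in TKO1 and TKO2). The median keratinocyte held 17326 to 21963 UMIs in Ctrl and 28052 to 30073 in TKO, and 39 barcode sequences occurred in more than 1 library. Cells were clustered without the genes within 1 Mb of Cd28 and without 1349 genes that differed between TKO and Ctrl, and clusters were named from markers as basal-like (4998 cells), differentiating-like (1984), hair follicle-like (2020) and immune-like (884). One further cluster of 183 cells is called the mixed cluster. Its 56 Ctrl cells carried a Merkel cell marker list at 18740 and 23020 CPM (UMIs of a gene or list per 1000000 UMIs of all genes in the same cells), whereas its 127 TKO cells carried it at 20.9 and 67.6 CPM with Atoh1 and Isl1 at 0, so no genotype comparison is drawn from it. Of the targeted genes, Setdb1 stood at 67.9 and 58.2 CPM in Ctrl and at 39.5 and 42.5 CPM in TKO keratinocytes. Suv39h1 (24.4, 25.3, 24.9 and 19.99 CPM) and Suv39h2 (14.0, 17.1, 22.6 and 16.0 CPM) did not separate the groups, and 3′ tags outside a deleted part do not check a deletion.

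Of the 5 members, 4 are annotated on the plus strand of chromosome 1 and Gm38388 on the minus strand. Gm11579, which is not on the list, lies on the minus strand opposite 2310016D23Rik and Gm37198. Cd28 spans 60755959 to 60812518. Gm38388 lies upstream at 60633966 to 60635395, and Gm11577 at 60740031 to 60741096. Downstream, 2310016D23Rik spans 60817757 to 60842950 and contains Gm37198 at 60818511 to 60820620 on the same strand. A long non-coding RNA that is not on the list, Gm57165 (counted under its identifier ENSMUSG00000120763), runs from 60648199 to 60749831. It holds Gm11577 on its own strand and ends 6.1 kb before Cd28 starts. The sources used here do not say how reads in such overlaps were counted, so the values of Gm11577 and Gm37198 are uncertain. Cd28 has 2 well-separated annotated starts, at 60755959 (transcript Cd28-202) and 60785517 (Cd28-201). Reads at 3′ ends do not tell which start was used, and so the windows before both are shown.

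The 250 bases before 4 annotated plus-strand starts are printed from the GRCm39 sequence to show what lies upstream of the transcripts that were counted together. They belong to Gm57165-202 (chr1:60647949-60648198), Cd28-202 (chr1:60755709-60755958), Cd28-201 (chr1:60785267-60785516) and 2310016D23Rik-209 (chr1:60817507-60817756). Capitals mark the only match found to the 3 motifs searched.
Gm57165-202: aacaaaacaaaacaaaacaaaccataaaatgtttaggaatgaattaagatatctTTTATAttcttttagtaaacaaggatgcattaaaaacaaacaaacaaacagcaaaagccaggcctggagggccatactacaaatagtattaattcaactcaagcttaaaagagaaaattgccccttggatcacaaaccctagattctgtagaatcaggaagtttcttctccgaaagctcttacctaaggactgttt
Cd28-202: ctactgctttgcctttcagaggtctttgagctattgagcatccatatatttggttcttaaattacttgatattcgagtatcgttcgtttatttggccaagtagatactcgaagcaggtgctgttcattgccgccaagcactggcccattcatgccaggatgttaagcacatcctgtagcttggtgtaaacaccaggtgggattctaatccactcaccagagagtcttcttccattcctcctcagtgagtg
Cd28-201: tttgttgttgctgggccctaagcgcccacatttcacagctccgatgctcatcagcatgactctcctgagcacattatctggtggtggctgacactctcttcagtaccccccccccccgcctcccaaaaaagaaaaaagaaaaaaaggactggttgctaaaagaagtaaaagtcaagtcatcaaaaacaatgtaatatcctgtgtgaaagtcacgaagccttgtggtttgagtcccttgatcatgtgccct
2310016D23Rik-209: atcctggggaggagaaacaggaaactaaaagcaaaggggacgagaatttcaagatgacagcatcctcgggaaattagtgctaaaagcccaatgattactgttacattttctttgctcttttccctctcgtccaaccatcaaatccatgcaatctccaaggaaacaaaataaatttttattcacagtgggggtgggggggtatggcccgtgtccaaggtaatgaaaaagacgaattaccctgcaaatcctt
The motifs TATAAA (the TATA box), GGGCGG (a GC box) and TGANTCA (an AP-1 site) were searched on both strands. The match is a TATAAA on the minus strand in the Gm57165 window, and 16.2% of 56232 windows of the same length before annotated genes hold 1. For GGGCGG and TGANTCA the shares over all windows were 16.7% and 6.91%. The 4 windows hold 1, 5, 4 and 5 CG dinucleotides in the order printed, against a median of 3 over all windows.

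Cd28 was close to absent from Ctrl keratinocytes and readily counted in those of TKO. Over all keratinocytes it gave 25 and 30 UMIs in Ctrl1 and Ctrl2 and 1449 and 1718 UMIs in TKO1 and TKO2. In CPM these are 0.367 and 0.524 against 27.7 and 31.7, a mean of 29.7 ± 2.84 (SD, n = 2) in TKO against 0.445 ± 0.111 (SD, n = 2) in Ctrl, or 66.7-fold. The groups did not overlap.

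The smaller members followed the same split. Gm11577 was counted 0 and 1 times in Ctrl1 and Ctrl2, and 78 and 87 times in TKO1 and TKO2. For 2310016D23Rik the counts were 0 and 0 against 37 and 58, at least 18.5-fold higher when Ctrl is set at 3 counts per library, the limit a count of 0 allows. Gm38388 gave 0 and 0 against 25 and 48, at least 14.2-fold higher on the same limit. Gm37198 gave 0 and 1 against 25 and 22 UMIs. Every member was thus at 0 or 1 UMI per Ctrl library except Cd28, and every member was above 20 UMIs in each TKO library. All 5 members passed an adjusted p of 0.05 in the fit across all genes, where 4.20% of 19961 genes passed in the higher direction and 6.76% in either; that contrast chose them, so nothing is read from the count.

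Within TKO, Cd28 was highest in basal-like cells among the 3 named keratinocyte classes and lowest in hair follicle-like cells. Basal-like cells held 33.7 and 50.2 CPM in TKO1 and TKO2 (1086 and 1344 UMIs). Differentiating-like cells held 20.6 and 16.0 CPM (172 and 229 UMIs), and hair follicle-like cells 5.41 and 5.46 CPM (51 and 63 UMIs). The order was the same in both TKO libraries, and no value of one class overlapped that of another. In Ctrl the same classes held 0.431 and 0.521, 0.0903 and 0.671, and 0.692 and 0.421 CPM, and these overlapped. A first clustering that kept the genes differing between TKO and Ctrl held a cluster of 685 cells, named basal. Its leading genes were 1700030N03Rik, Gria3 and Npffr1. The study describes TKO-only aberrant basal and differentiating cells, the latter with Cd28 expression. The classes used here do not set such cells apart, and their part in the class levels was not tested.

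**Figure D1:**
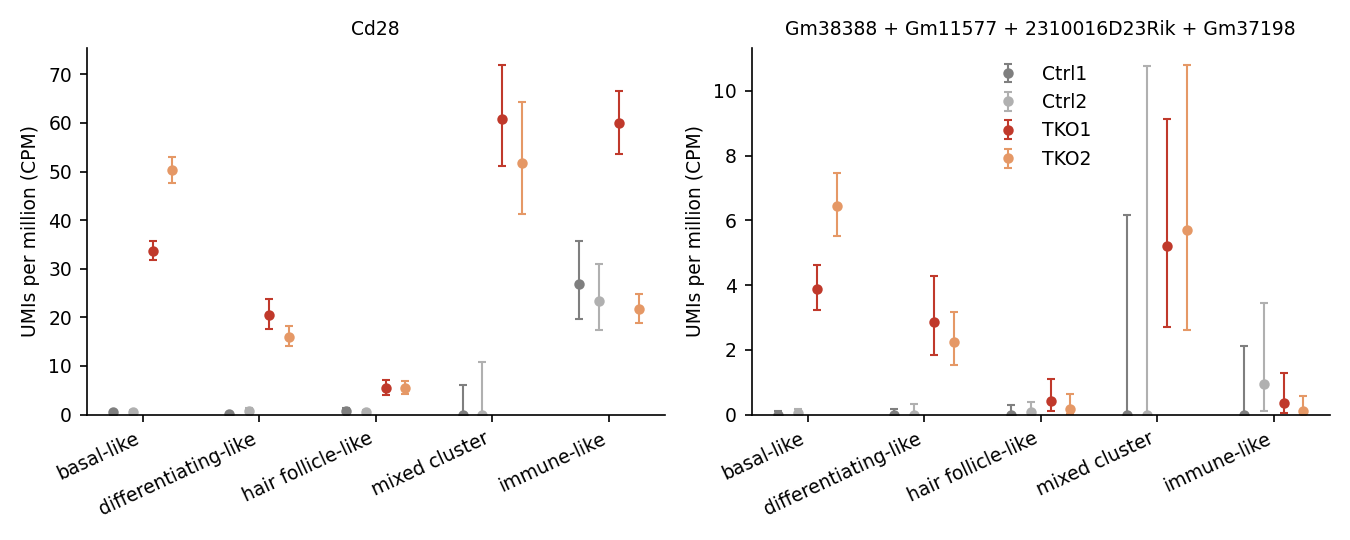
Level of Cd28 (left) and of the other 4 members summed (right) in CPM, for 5 cell groups and each of the 4 libraries, with exact 95% Poisson intervals that cover counting error only. TKO basal-like cells sit at 33.7 and 50.2 CPM of Cd28 and TKO hair follicle-like cells at 5.41 and 5.46 CPM; immune-like cells hold Cd28 in all 4 libraries but hardly any of the other members.

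The class difference inside TKO is not the contrast that chose the members and was tested with edgeR's quasi-likelihood test on sums per library and class. Cd28 was lower in hair follicle-like than in basal-like cells by a log2 difference of -3.05 (SE 0.278, adjusted p = 9.19e-05), in both TKO libraries. It was lower in differentiating-like than in basal-like cells by -1.05 (SE 0.239, adjusted p = 0.00488); without TKO replicate 2 this difference was -0.61 with adjusted p = 0.128. These classes differ in much else: of 17412 genes, 25.6% were called between hair follicle-like and basal-like cells (12.1% lower in hair follicle-like) and 52.8% between differentiating-like and basal-like cells (27.0% lower in differentiating-like). Cd28 gave at least 51 UMIs in each TKO sum of these classes. Of the other members, Gm11577 and 2310016D23Rik passed the count filter through the TKO sums in which they are high, and Gm38388 and Gm37198 did not pass it, so no test is drawn on for them. Gm11577 gave 57 and 70 UMIs in TKO1 and TKO2 basal-like cells, 12 and 10 in differentiating-like and 2 and 1 in hair follicle-like cells. For 2310016D23Rik the counts were 28 and 41, then 5 and 14, then 0 and 1.

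Among the finer clusters, the summed members reached their highest levels in basal-like clusters, in 1 cycling differentiating-like cluster and in the mixed cluster, and low levels in a suprabasal cluster and in hair follicle-like clusters. A small basal-like cluster, 17, with 30 cells in TKO2, was also low at 4.09 CPM. Cluster 5, basal-like cells with the cell cycle genes Ube2c and Cenpf among its leading genes, held 49.8 and 74.8 CPM in TKO1 and TKO2. Cluster 9, basal-like with the cell cycle genes Ccnb2 and Cdc20 among its leading genes, was low among basal-like clusters at 16.6 and 22.5 CPM, and cluster 14, basal-like, held 76.3 and 67.9 CPM. Cluster 13, differentiating-like cells led by the cycling genes E2f2 and Top2a, held 40.3 and 79.8 CPM. Cluster 4, also differentiating-like and led by Zfp750 and Notch3, held 38.3 and 22.6 CPM. Cluster 10, led by the suprabasal keratins Krt1 and Krt10, held 2.08 and 0.687 CPM. The differentiating-like class therefore mixed clusters with levels as high as those of basal-like clusters and a cluster with almost none.

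The hair follicle-like clusters split in the same manner. Cluster 2, led by Dkk4, a placode gene, held 8.96 and 10.3 CPM of the summed members. Cluster 6, with Lgr5 and Sox9, held 0 and 1.22 CPM, and cluster 11, with the signalling gene Shh, 1.29 and 0.443 CPM. The mixed cluster held 66.1 and 57.5 CPM. TKO2 exceeded TKO1 in most basal-like clusters, and TKO1 exceeded TKO2 in clusters 4, 8 (the mixed cluster), 10, 11 and 14.

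**Figure D2:**
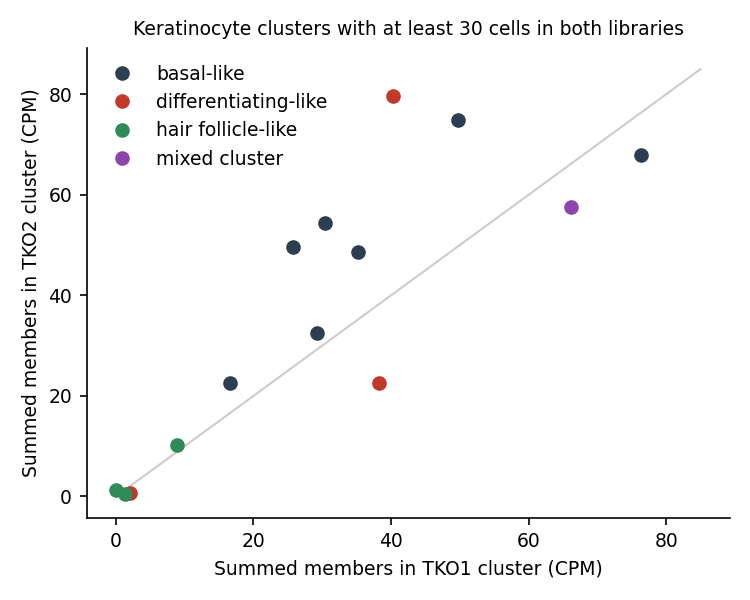
Summed level of the 5 members in CPM in each keratinocyte cluster with at least 30 cells in both TKO libraries, TKO1 on the horizontal and TKO2 on the vertical axis, coloured by class; the grey line marks equal levels. The hair follicle-like clusters and 1 differentiating-like cluster lie at or below about 10.3 CPM in both libraries, and the other clusters lie above 16.6 CPM.

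The UMIs were spread unevenly over cells. In TKO keratinocytes 427 of 1564 (27.3%) and 455 of 1791 (25.4%) cells held at least 1 Cd28 UMI, against 20 of 2842 (0.704%) and 25 of 2988 (0.837%) in Ctrl. The tenth of keratinocytes with the most Cd28 UMIs held 71.5% and 74.0% of them in TKO1 and TKO2, with up to 23 and 32 UMIs in a single cell. The part of the mosaic deletion in this spread was not tested. Because TKO cells were deeper, each keratinocyte was also thinned to 5000 UMIs, which kept 2819, 2950, 1560 and 1784 cells. The share with a Cd28 UMI was then 0.177% and 0.203% in Ctrl and 9.81% (95% exact binomial interval 8.38 to 11.4) and 10.0% (8.68 to 11.5) in TKO. In TKO basal-like cells it was 12.1% and 15.4%, in differentiating-like cells 6.01% and 6.15%, and in hair follicle-like cells 2.48% and 1.70%. Fibroblast-like cells, which are not expected to carry the gene, had a Cd28 UMI in 0 of 104 and 0 of 104 cells in Ctrl, which allows a share of up to 2.88% each, and in 1 of 126 (0.794%) in TKO2, at median depths of 14512, 12975 and 14942 UMIs. In TKO1 12 of 183 fibroblast-like cells (median 18058 UMIs) had 30 Cd28 UMIs, 13 of them in 1 cell. That sum also carried macrophage markers at 993 CPM, against 6.13 to 20.1 CPM in the other 3 libraries. Erythroid markers in fibroblast-like cells stood at 24.4, 27.25, 4466 and 14980 CPM in Ctrl1, Ctrl2, TKO1 and TKO2. The part of either marker list's cells in the count was not tested. Melanocyte-like cells gave 0, 1, 14 and 14 Cd28 UMIs in Ctrl1, Ctrl2, TKO1 and TKO2, with macrophage markers at 0, 2415, 1515 and 925.6 CPM, basal keratinocyte markers at 13270, 2342, 3204 and 9466 CPM, and erythroid markers at 21.7, 24.3, 5644 and 2002 CPM. The part of these markers' cells in the count was not tested.

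Immune-like cells held Cd28 in every library, Ctrl included. The level was 26.8 and 23.4 CPM in Ctrl1 and Ctrl2 (47 and 49 UMIs) and 59.9 and 21.7 CPM in TKO1 and TKO2 (340 and 208 UMIs). TKO1 stood above the others, and the exact Poisson interval of TKO2 (18.8 to 24.8) overlapped those of both Ctrl libraries. The share of immune-like cells with a Cd28 UMI was 28.4% and 24.2% in Ctrl and 49.2% and 28.3% in TKO, at median depths of 14642 to 20137 UMIs. Over TKO, the mean of 40.8 ± 27.0 CPM (SD, n = 2) in immune-like cells did not differ beyond its spread from 42.0 ± 11.7 CPM in basal-like cells, and both are followed by differentiating-like cells at 18.3 ± 3.22 and hair follicle-like cells at 5.44 ± 0.0382 CPM.

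These immune-like cells were macrophage-like by their markers. A macrophage list of 8 genes, among them Csf1r and C1qa, summed to 13020 to 14750 CPM with all 8 detected in each library. A T cell list of 12 genes summed to 1.15 to 5.26 CPM, and Cd3e, Cd3d and Cd3g, the defining T cell receptor subunits, were at 0 in all 4 libraries. In keratinocytes the T cell list stood at 22.8 and 25.5 CPM in Ctrl and 15.1 and 17.6 CPM in TKO, with 8, 8, 10 and 7 of its 12 genes detected in Ctrl1, Ctrl2, TKO1 and TKO2. Of the Cd3 subunits, Cd3d was at 0 in all 4 keratinocyte sums, Cd3e was detected in Ctrl2 and TKO1 and Cd3g in TKO1. Their part in the Cd28 level was not tested.

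Macrophage markers in keratinocytes were also higher in TKO, at low levels. They summed to 2.54 and 4.44 CPM in Ctrl and 7.24 and 14.8 CPM in TKO keratinocytes, which is 0.0195%, 0.0301%, 0.0501% and 0.1% of their level in immune-like cells of the same library. Their part in the Cd28 level of keratinocytes was not tested.

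The make-up of the locus transcripts differed between TKO keratinocytes and immune-like cells, with fewer counts behind the same comparison in Ctrl. Gm57165, the long non-coding RNA upstream, was counted 13 and 4 times in Ctrl keratinocytes, as against 1007 and 1378 times in TKO. Of the UMIs of Gm57165 and Cd28 together, Gm57165 made up 41.6% (95% exact interval 39.4 to 43.9) and 44.7% (42.7 to 46.7) in TKO1 and TKO2 basal-like cells. The share was 38.6% and 41.7% in differentiating-like and 45.7% and 43.2% in hair follicle-like cells. In immune-like cells it was 2.30% (0.998 to 4.48) and 1.89% (0.516 to 4.76) in TKO, and 0 of 47 and 3 of 52 UMIs in Ctrl. In Ctrl keratinocytes Gm57165 made up 13 of 38 (34.2%, 19.6 to 51.4) and 4 of 34 UMIs (11.8%, 3.30 to 27.4). The Ctrl1 interval did not overlap that of Ctrl1 immune-like cells (0 to 7.55), although 7 of its 13 Gm57165 UMIs came from 1 cell, and the Ctrl2 interval overlapped that of Ctrl2 immune-like cells (1.21 to 15.9). Gm57165 was the tested neighbour that rose most in TKO keratinocytes, which favours a larger share there than in immune-like cells. The intervals of the TKO keratinocyte classes overlapped one another within each library and lay far from those of immune-like cells, and nothing is read from that distance.

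For the 4 smaller members the same held in basal-like and differentiating-like cells but not clearly in hair follicle-like cells. They made up 10.3% and 11.3% of all member UMIs in TKO basal-like cells, 12.2% and 12.3% in differentiating-like cells and 7.27% (2.02 to 17.6) and 3.08% (0.375 to 10.7) among hair follicle-like ones. The share in TKO immune-like cells was 0.585% (0.0709 to 2.10) and 0.478% (0.0121 to 2.64). In Ctrl keratinocytes they were 0 of 25 and 2 of 32 member UMIs. The hair follicle-like intervals, from 4 of 55 and 2 of 65 UMIs, overlapped those of immune-like cells in both TKO libraries. Of the 4, Gm38388 and Gm11577 were at 0 UMIs in all 4 immune-like sums, at up to 9595055 UMIs in a sum. The intervals cover counting error only, and libraries, not UMIs, are the replicates. The gap between immune-like cells and basal-like or differentiating-like cells was present in both TKO libraries. These members were chosen with their higher level in TKO already known, which favours a larger share in TKO keratinocytes, so nothing is read from the gap.

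**Figure D3:**
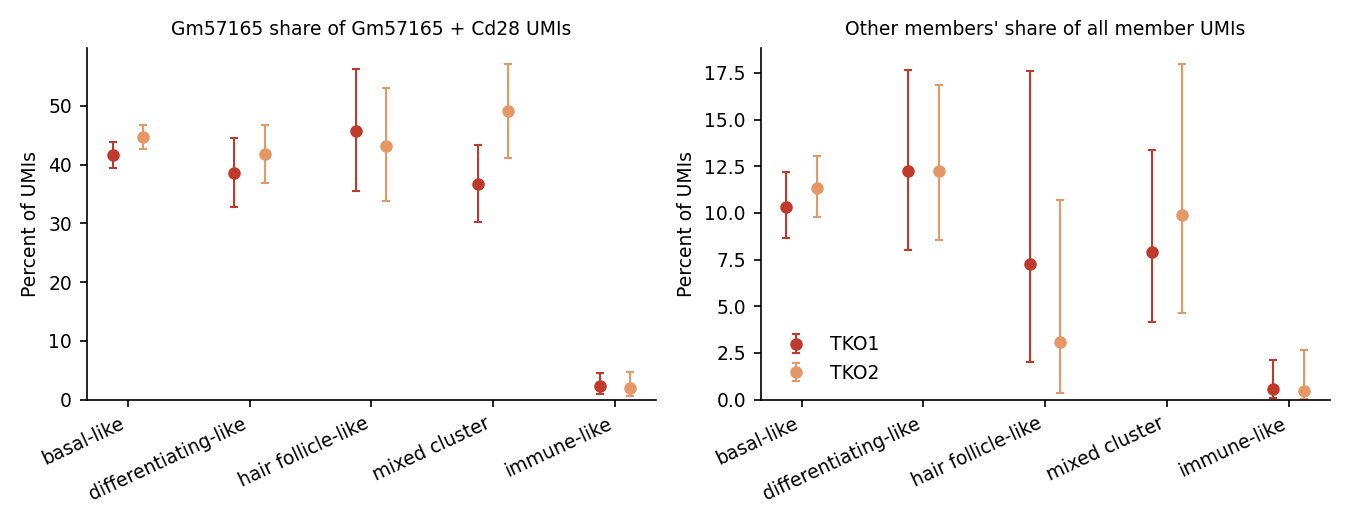
Percent of UMIs in each cell group of TKO1 and TKO2, with exact 95% binomial intervals that cover counting error only: Gm57165 as a share of Gm57165 plus Cd28 (left) and Gm38388, Gm11577, 2310016D23Rik and Gm37198 as a share of all member UMIs (right). Keratinocyte groups lie between 36.6% and 49.1% on the left, and immune-like cells at 2.30% and 1.89%.

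Co-detection in the same cells was computed for Cd28 with Gm57165, which is not on the list, and with each of the other members. At 5000 UMIs per cell, 22.9% of TKO1 and 27.4% of TKO2 keratinocytes with a Cd28 UMI also held a Gm57165 UMI, against 5.40% and 6.11% of those without. That is 35 cells with both where 10.9 would be met if the 2 genes were independent in TKO1, and 49 where 14.8 would be met in TKO2. At least 1 of the other 4 members was found in 8.50% and 6.15% of cells with Cd28, against 1.21% and 1.06% without, in 13 cells against 2.94 and in 11 cells against 2.81 under independence. Gm11577 shared 8 and 6 cells with Cd28, against 1.57 and 1.505 under independence. For 2310016D23Rik the shared cells were 3 and 2 against 0.49 and 0.803, and for Gm37198 3 and 2 against 0.49 and 0.301. Gm38388 went either way, with 0 cells against 0.588 in TKO1 and 2 against 0.301 in TKO2. The counts of cells with both are small, and these are descriptions of cells from 2 embryos. The part of the mosaic deletion in these figures was not tested.

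Cells with Cd28 were more often basal-like, so the same figures were computed in basal-like cells alone. There 23.7% and 29.2% of cells with Cd28 held Gm57165, against 6.65% and 10.2% of those without, and 8.47% and 6.57% against 1.75% and 1.85% held another member. Of all keratinocytes with Cd28, 77.1% and 76.5% were basal-like, against 60.9% and 47.0% of cells without, and their median depth before thinning was 32826 and 28968 UMIs against 29847 and 27960.

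Other genes that are higher in TKO, taken as comparators, were also found with Cd28 to differing degrees, and co-detection was not particular to the locus. Npffr1, a neuropeptide receptor gene, was present in 15.0% and 15.1% of cells with Cd28 and in 8.10% and 5.61% of cells without. Gria3, a glutamate receptor subunit gene, was present in 37.2% and 24.0% against 19.3% and 10.7%. 1700030N03Rik was present in 16.3% and 9.50% against 6.96% and 5.54%, Col28a1 in 9.80% and 21.8% against 6.75% and 15.3%, and Gm42653 in 71.2% and 56.4% against 54.1% and 42.2%. Tdrd1, a germline gene, was present in 5.23% and 8.94% against 5.69% and 12.2%. Gm11884 went either way, at 9.80% and 9.50% against 7.46% and 11.96%. Over all keratinocytes, cells with both genes exceeded independence 3.215 and 3.32 times for Gm57165 and 4.42 and 3.915 times for any other member. The comparators reached at most 2.07 times in TKO1 (1700030N03Rik) and 2.30 times in TKO2 (Npffr1). In basal-like cells alone, cells with both genes exceeded independence 3.305 and 2.55 times for any other member, 2.72 and 2.23 times for Gm57165 and 2.60 and 2.89 times for 1700030N03Rik. The ratios there were 1.75 and 2.13 for Npffr1, 1.59 and 1.90 for Gria3, 1.22 and 1.21 for Gm42653 and 0.87 and 1.72 for Col28a1. Gm11884 (1.06 and 0.859 times) and Tdrd1 (0.918 and 0.796 times) stayed near or below 1. Neighbours of Cd28 farther away showed differences in either direction: Cyp20a1 was found in 8.50% and 6.15% of cells with Cd28, against 7.04% and 5.67% without, and Ctla4 in 3.92% and 6.15% against 5.26% and 4.49%. Raph1 was found in 39.2% and 29.1% against 32.9% and 36.5%, Abi2 in 22.2% and 27.9% against 24.7% and 25.7%, and Pard3b in 8.50% and 5.03% against 9.81% and 8.60%.

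**Figure D4:**
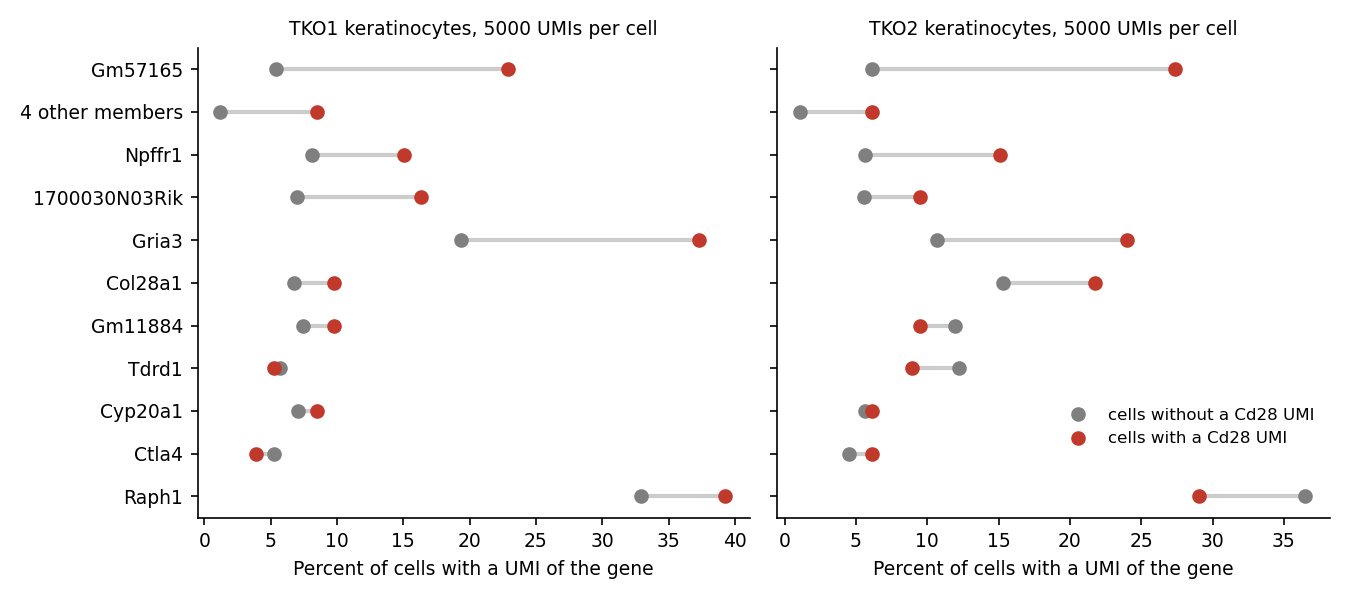
Percent of TKO1 (left) and TKO2 (right) keratinocytes, thinned to 5000 UMIs per cell, that held a UMI of each gene, among cells with a Cd28 UMI (red) and without (grey). Gm57165 and the 4 other members show gaps of 22.9% against 5.40% and 8.50% against 1.21% in TKO1, while Tdrd1, Cyp20a1 and Ctla4 show small gaps in either direction.

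Apart from Gm57165, the tested genes around the members changed less in size than the members did, and in both directions. Of 51 other genes within 1 Mb of Cd28, 25 had enough counts for the test of TKO against Ctrl in all keratinocytes, and 5 were called, 2 higher and 3 lower (20%, against 6.76% of 19961 genes called in either direction, 4.20% higher and 2.55% lower). The median log2 change of the 25 was -0.25 and that of all genes -0.02. Without Ctrl replicate 1 none of the 25 was called by edgeR and 8 passed an unadjusted p of 0.05, and without Ctrl replicate 2 the count was 2. In these fits the Ctrl group rests on a lone library that is assumed to vary like the others.

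Gm57165 rose most, by a log2 change of 7.34 (SE 0.415, adjusted p = 0.0028), from 0.191 and 0.0698 CPM in Ctrl to 19.2 and 25.4 CPM in TKO. Cyp20a1, a cytochrome P450 family gene that ends 328.7 kb before Cd28, rose from 3.97 and 3.93 to 13.5 and 11.98 CPM, by 1.67 (SE 0.164, adjusted p = 0.00853). The call of Gm57165 was lost in 1 of 12 alternatives (adjusted p = 0.0846) and that of Cyp20a1 in 2 of 12 (up to 0.144). Between them, Raph1 and Abi2 were tested and not called.

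Next to Cd28, Gm57147 (ENSMUSG00000120928) held 1.77 and 1.96 CPM in Ctrl and 1.93 and 1.83 CPM in TKO, although it lies inside Gm57165 on the same strand. Eif4a-ps4, a pseudogene also inside Gm57165, gave 36 and 30 UMIs in Ctrl and 23 and 23 UMIs in TKO and was not called. Downstream, Ctla4 stood at 15.2 and 15.1 CPM in Ctrl against 11.3 and 9.69 CPM in TKO; its log2 change was -0.55 (adjusted p = 0.0813), and in basal-like cells alone -0.68 (adjusted p = 0.0267, in a fit that called 12.6% of genes). The basal-like call was lost in 3 of 12 alternatives (adjusted p up to 0.152), and over all keratinocytes Ctla4 was called in 2 of 12. Icos gave 1, 1, 1 and 2 UMIs in the 4 libraries and was not tested. Neither of these relatives of Cd28 was called higher in TKO.

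The called genes that fell are Pard3b, far downstream, and a pair of genes that overlap it. Pard3b, a cell polarity gene that starts 865.5 kb after Cd28 ends, fell from 80.8 and 85.9 to 22.7 and 22.4 CPM (log2 change -1.90, SE 0.0935, adjusted p = 0.00215). Pard3bos1, its antisense gene, changed by -1.77 (adjusted p = 0.0168) and Gm37205, which lies inside Pard3b, by -2.44 (adjusted p = 0.0317). Over the alternatives the call of Pard3b was lost in 1 of 12 (adjusted p = 0.0866), that of Pard3bos1 in 3 of 12 (up to 0.185) and that of Gm37205 in 5 of 11 (up to 0.236). Whether the counting used strand is not given in the sources used here, so the last 2 cannot be told apart from Pard3b. The log2 change of Pard3b was -0.42 in differentiating-like and -1.995 in basal-like cells, and that of Raph1 was 0.46 in hair follicle-like and -0.49 in basal-like cells; both differences passed in tests of the difference that called 3.09% and 1.17% of 17412 genes.

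**Figure D5:**
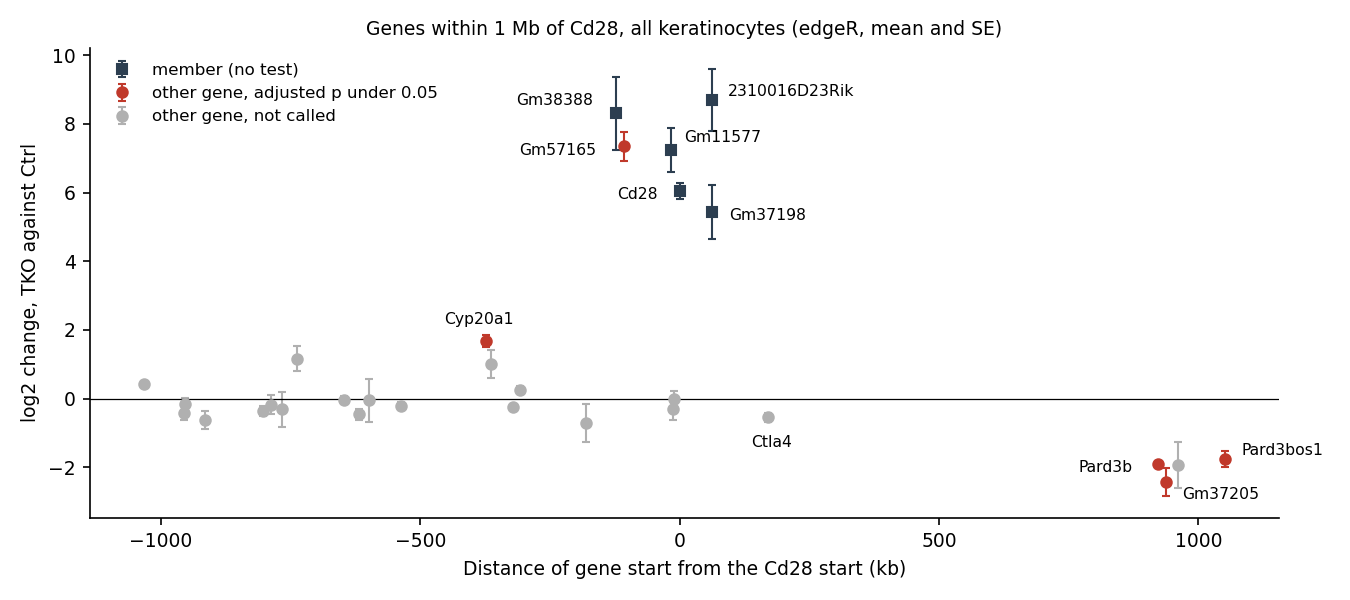
Log2 change of TKO against Ctrl over all keratinocytes (edgeR estimate with its standard error) for genes within 1 Mb of Cd28, by the distance of their start from that of Cd28 in kb; squares are the 5 members, shown without a test, red points the other genes called at an adjusted p under 0.05. Estimates for members at 0 in Ctrl depend on the prior count and are no bound. The members and Gm57165 stand above 5, Cyp20a1 is at 1.67, and Pard3b and the genes overlapping it are below 0.

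The ligands and signalling genes of the CD28 pathway, a list of 43 genes other than Cd28, changed little as a group in all keratinocytes. Of 36 tested, 3 were called, 2 higher and 1 lower (8.33%, against 6.76% of all genes), with a median log2 change of -0.05 against -0.02. With either Ctrl library left out the count was 0 in edgeR, with 9 and 7 genes at an unadjusted p under 0.05 without Ctrl replicate 1 and 2.

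Cd80, a ligand of Cd28, rose from 1.19 and 1.08 CPM in Ctrl to 2.98 and 3.30 CPM in TKO (log2 change 1.45, SE 0.236, adjusted p = 0.0297). In differentiating-like cells, where it was highest, it held 2.17 and 2.52 CPM against 8.85 and 8.60 CPM (adjusted p = 0.0404, where 1.41% of genes were called). In basal-like cells Cd80 was not called, with log2 changes of 0.0151 to 1.02 over 11 alternatives. The call over all keratinocytes was lost in 5 of 12 alternatives (adjusted p up to 0.222) and that in differentiating-like cells in 4 of 12 (up to 0.186), with log2 changes of 1.36 to 1.56 and 1.73 to 1.98. Cd86, the other ligand, gave 5 and 11 UMIs in Ctrl and 19 and 27 UMIs in TKO (log2 change 1.71, adjusted p = 0.135). Icosl had a log2 change of -0.37 (adjusted p = 0.578).

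Of the kinases and adaptors, Fyn, a Src family kinase that also acts in many cells other than T cells, rose from 11.1 and 12.3 to 28.9 and 22.9 CPM (log2 change 1.13, SE 0.149, adjusted p = 0.0176). Within classes its log2 change over the alternatives was 1.735 to 2.75 in basal-like, 2.37 to 3.51 in differentiating-like and 0.924 to 1.41 in hair follicle-like cells. Pik3r1, the regulatory subunit of PI3-kinase, fell from 196.5 and 197.2 to 118.8 and 123.5 CPM (log2 change -0.72, SE 0.0921, adjusted p = 0.0168). Each of these calls was lost in 2 of 12 alternatives (adjusted p up to 0.204 for Fyn and 0.186 for Pik3r1).

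The genes whose level followed the summed members most closely over 29 TKO cluster sums, among 9068 genes with a mean of at least 10 CPM, were Gm57165 (Pearson r 0.981), Dctd (0.858), Phactr2 (0.829), Slc2a3 (0.809) and Col12a1 (0.809). The points share 2 libraries and many of their clusters, so r is a description. Dctd encodes a deaminase of deoxycytidylate metabolism and Slc2a3 a glucose transporter. Of the 5, Slc2a3 gave 344 and 244 UMIs in Ctrl and 3022 and 1973 UMIs in TKO keratinocytes, and Dctd 1514 and 1277 against 2072 and 1832. Phactr2 went the other way, with 51.3 and 59.0 CPM in Ctrl and 48.1 and 38.4 CPM in TKO keratinocytes. Col12a1 stood at 42.1 and 41.5 against 61.6 and 52.5 CPM.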

How the data were processed

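The data are UMI counts per gene and barcode, deposited by the authors as filtered 10x matrices for 2 Ctrl and 2 TKO libraries. Per the file headers they were made with Cell Ranger 7.1.0, which is not the version given in the methods; the build is GRCm39, and the annotation and the use of intronic reads and strand are not given in the sources used here. The study's litter list gives a different embryonic day than the labels. Its text gives E16.5 for the single-cell experiment, as the labels do, and the labels were followed. The members and gene lists were chosen with earlier results of these data known.

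Cells with at least 2000 genes and under 10% mitochondrial UMIs were kept, and the cells with the highest Scrublet scores were removed as doublets, at an assumed rate of 0.8% per 1000 barcodes (457 of 11221 cells). Libraries were aligned with a Harmony-type correction written for this work, and cells were clustered with Leiden at resolution 1 (scanpy 1.11.5, leidenalg 0.10.2, igraph 0.11.9) and named from markers. Depth was 70749496 to 89655247 UMIs per library. Of the gene identifiers, 744 did not match the annotation used (GENCODE, GRCm39), which supplied positions.

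UMIs were summed per library and class. TKO was compared with Ctrl by edgeR 4.0.16's quasi-likelihood test (TMM, filterByExpr, R 4.3.3, limma 3.58.1), with Benjamini-Hochberg adjustment over all genes tested; classes were compared over 12 sums with terms for library and for class within genotype. Libraries are separate embryos, 2 per group. Log2 changes are edgeR estimates. Intervals are exact (Poisson or Clopper-Pearson, 95%), and a count of 0 was taken to allow 3 counts. Genes named are the members, the called neighbours, the 3 nearest tested neighbours on either side, pathway ligands and receptors, the called pathway genes with the smallest adjusted p, a list of comparators, and the 5 most like genes (Pearson r of log2 of CPM plus 5, centred per library, sums of at least 30 cells). Alternatives were DESeq2 1.42.0, its size factors, no count filter, other cell filters and resolution, thinned cells, a replicate block and each library left out. The test scripts were tested on simulated data.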

Additional observations from a re-analysis of the deposited data

Results flagged for a closer look

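Nop58, Pard3b and Raph1, neighbours of Cd28, had a TKO against Ctrl change that differed between keratinocyte classes by edgeR's test of the difference, in which 3.09% of 17412 genes were called for differentiating-like against basal-like cells and 1.17% for hair follicle-like against basal-like cells. For Pard3b the log2 change was higher in differentiating-like than in basal-like cells by 1.54 (SE 0.31, adjusted p = 0.0379). For Nop58 the difference of the same kind was -0.48 (adjusted p = 0.026). For Raph1 the log2 change was higher in hair follicle-like than in basal-like cells by 0.98 (SE 0.117, adjusted p = 0.00701).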

How the results depend on the processing

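Of the neighbours called, the count of 5 became 8 in DESeq2 and 3 in cells thinned to 5000 UMIs, and 0 to 6 when 1 library was left out. Of the pathway genes, the count of 3 became 5 in DESeq2 and 0 to 4 when 1 library was left out. Of the members, 1 was called between differentiating-like and basal-like cells, 2 with no count filter and 0 to 1 with a library left out (0 without TKO replicate 2 in edgeR, where 0 passed an unadjusted p of 0.05); between hair follicle-like and basal-like cells the 3 called became 5 with no filter, 1 in thinned cells, where fewer members could be tested, and 1 to 4 with a library left out; since the smaller members pass the filter through their high sums, these counts support nothing. The share of TKO keratinocytes with a member UMI was 28.0% as deposited, 10.95% at 5000 and 16.9% at 10000 UMIs per cell, and 27.2% to 28.9% with a library left out; the members' summed level was 30.8 to 35.7 CPM with a library left out, and 28.5 and 31.6 CPM in TKO1 and TKO2 at 10000 UMIs. The log2 change of ENSMUSG00000120928, near 0, turned positive in DESeq2 (0.0026), with its size factors (0.0024), without Ctrl replicate 2 (0.047) and without TKO replicate 2 (0.022), with -0.051 at the other end of that range, and that of Icosl in thinned cells (0.43). Except where named, the cause was not tested.

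The replicate numbers did not pair the libraries (r of same-numbered deviations -0.294 over 19961 genes and 2 pairs). With a replicate block the neighbours called were 4 and the pathway genes 3, and with a crossed block, added after the data were seen, 9 and 7; without the block, class fits called 1 and 3 members. Cd80, called without it, had adjusted p = 0.0644 under the block.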
